A study of Mus musculus with 9 samples.

Results

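The genes described are 8 genes whose transcripts are carried mainly by platelets and their parent cells, the megakaryocytes: Pf4, Ppbp, Clec1b, Treml1, Itga2b, Gp9, Gp1bb and Gp5. They were chosen by name, with earlier results of these data known, and found in the authors' gene tables, which list 39171 genes. The matrix of FPKM by library lists 14479 genes, among them 5 of the 8 (Pf4, Ppbp, Clec1b, Itga2b and Gp1bb), while Treml1, Gp9 and Gp5 have group values only. RNA was sequenced from the lower part of the ventricular apex of CD-1 mice, operated on at postnatal day 1 and sampled at postnatal day 2. There were 3 groups of 3 libraries: sham surgery, ventricular apical resection (removal of the tip of the ventricle), and ventricular apical resection with left vagotomy (cutting of the left vagus nerve). No allele or agent is named in the labels, and all pups underwent an operation. The labels do not say whether a library is 1 pup or a pool, so p-values measure the spread between these libraries, which may be technical.

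Platelets have no nucleus and carry RNA inherited from megakaryocytes. At a wound they bind von Willebrand factor through the GPIb-IX-V complex, become activated, bind fibrinogen through the integrin alphaIIb beta3 and release granules that hold chemokines and clotting proteins. Their RNA in a tissue sample can come from circulating platelets, from a clot or from megakaryocytes, and some of these genes are also used by other cells: Pf4 by some macrophages, Itga2b by mast cells and blood progenitors.

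The promoters of the 4 members named next are shown because the data put these genes on different patterns over the groups: Pf4, Ppbp and Clec1b were at their highest after resection, and Itga2b after resection with vagotomy. Each is the 250 bases before the RefSeq start (GRCm38.p6), 5′ to 3′ on the gene's strand, with capitals on 2 letter patterns searched on both strands, GATAA (part of what GATA factors bind) and GGAAGT (part of what ETS factors bind). These are 2 factor families used by megakaryocytes. The windows are chr5:90772185-90772434 (plus strand) for Pf4, chr5:90768268-90768517 (plus) for Ppbp, chr6:129397047-129397296 (plus) for Clec1b and chr11:102469884-102470133 (minus) for Itga2b. RefSeq starts Itga2b at 102469883, while GENCODE starts it at 102470122, so 239 of the 250 bases of its window lie inside the gene as GENCODE gives it.
Pf4: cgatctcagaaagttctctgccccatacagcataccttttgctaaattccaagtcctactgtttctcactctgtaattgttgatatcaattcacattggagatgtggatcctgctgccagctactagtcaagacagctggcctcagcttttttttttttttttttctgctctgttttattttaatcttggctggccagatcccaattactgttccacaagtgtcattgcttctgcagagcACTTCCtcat
Ppbp: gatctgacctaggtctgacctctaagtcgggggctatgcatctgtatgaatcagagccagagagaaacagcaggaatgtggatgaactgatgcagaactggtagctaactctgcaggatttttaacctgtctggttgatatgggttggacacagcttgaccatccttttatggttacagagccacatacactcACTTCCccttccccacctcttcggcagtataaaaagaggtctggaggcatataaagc
Clec1b: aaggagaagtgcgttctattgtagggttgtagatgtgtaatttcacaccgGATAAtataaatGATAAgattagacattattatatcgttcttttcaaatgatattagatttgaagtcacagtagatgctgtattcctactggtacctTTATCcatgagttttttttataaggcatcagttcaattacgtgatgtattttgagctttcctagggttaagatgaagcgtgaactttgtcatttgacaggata
Itga2b: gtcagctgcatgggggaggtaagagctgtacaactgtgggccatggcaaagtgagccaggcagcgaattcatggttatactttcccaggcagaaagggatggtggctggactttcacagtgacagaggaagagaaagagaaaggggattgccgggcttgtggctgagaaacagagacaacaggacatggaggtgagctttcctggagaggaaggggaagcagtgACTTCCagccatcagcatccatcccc

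In these windows Pf4, Ppbp and Itga2b each held 1 match to GGAAGT, which began 10, 57 and 26 bases before the start. Clec1b held 3 matches to GATAA, at 200, 188 and 103 bases. All 8 members had a window in the RefSeq table. Of the 8, 5 held GGAAGT (Pf4, Ppbp, Itga2b, Gp9 and Gp5) and 3 held GATAA (Clec1b, Gp9 and Gp5), and Treml1 and Gp1bb held neither. Among all 32851 promoters of the same length, 19.7% held GGAAGT and 22.6% held GATAA. The matches describe letters, not binding.

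The values are FPKM, fragment counts scaled by transcript length and by library size, so levels can be compared between genes per length. Sequencing depth is unknown. Libraries had medians between 7.52 and 8.29 FPKM, and r across genes, which are not independent replicates, lay between 0.778 and 0.957 for any pair of them on the log2(FPKM + 1) scale. Cardiomyocyte genes marked the tissue: the troponin gene Tnnt2 stood at 1458 to 18822 FPKM over the 9 libraries. Its highest value was in vagotomy replicate 3, the library with 740 listed genes at 0 against 203 to 311 in the others. The myosin gene Myh6 and the actin gene Actc1 were listed at 0 in all 3 vagotomy libraries, where the authors' table gives them the status HIDATA, a failed estimate at very high read density. Errors after ± are SDs (n = 3), and differences are in log2(FPKM + 1), which understates the change of low genes. Adjusted p-values come from limma, two-sided, corrected by Benjamini-Hochberg across 13249 genes that averaged 1 FPKM or more. With 3 libraries on each side, exact permutation has 0.1 as its smallest two-sided p.

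The comparison of resection with sham surgery asks how the newborn apex responds on the day after losing its tip. All 5 platelet genes of the matrix had higher means and positive log2 differences after resection. The log2 difference was positive for 6439 of all 13249 tested genes. For 4 of the 5 (Pf4, Ppbp, Clec1b and Itga2b) the 3 resection libraries lay above the 3 sham libraries, which was so for 6.36% of all tested genes. By limma 0 of the 5 passed an adjusted p of 0.05, against 0.294% of all tested genes (39), and 3 (Pf4, Ppbp and Clec1b) had an unadjusted p under 0.05, against 5.89%. By the authors' Cuffdiff table, 2 members passed a q of 0.05 (Pf4 and Ppbp), against 6.12% of the genes tested there. Both also passed a q of 0.01, against 4.22%. Ppbp, Clec1b, Itga2b and Gp1bb had sham means below 1 FPKM. They are in the matrix, which lists genes that reach 1 FPKM in some library, only through libraries of the other groups in the case of Ppbp, Clec1b and Itga2b. The counts over the listed members are therefore a description and do not speak for the 8. In a bulk sample, more platelets or megakaryocytes and more RNA per cell cannot be told apart.

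**Figure D1:**
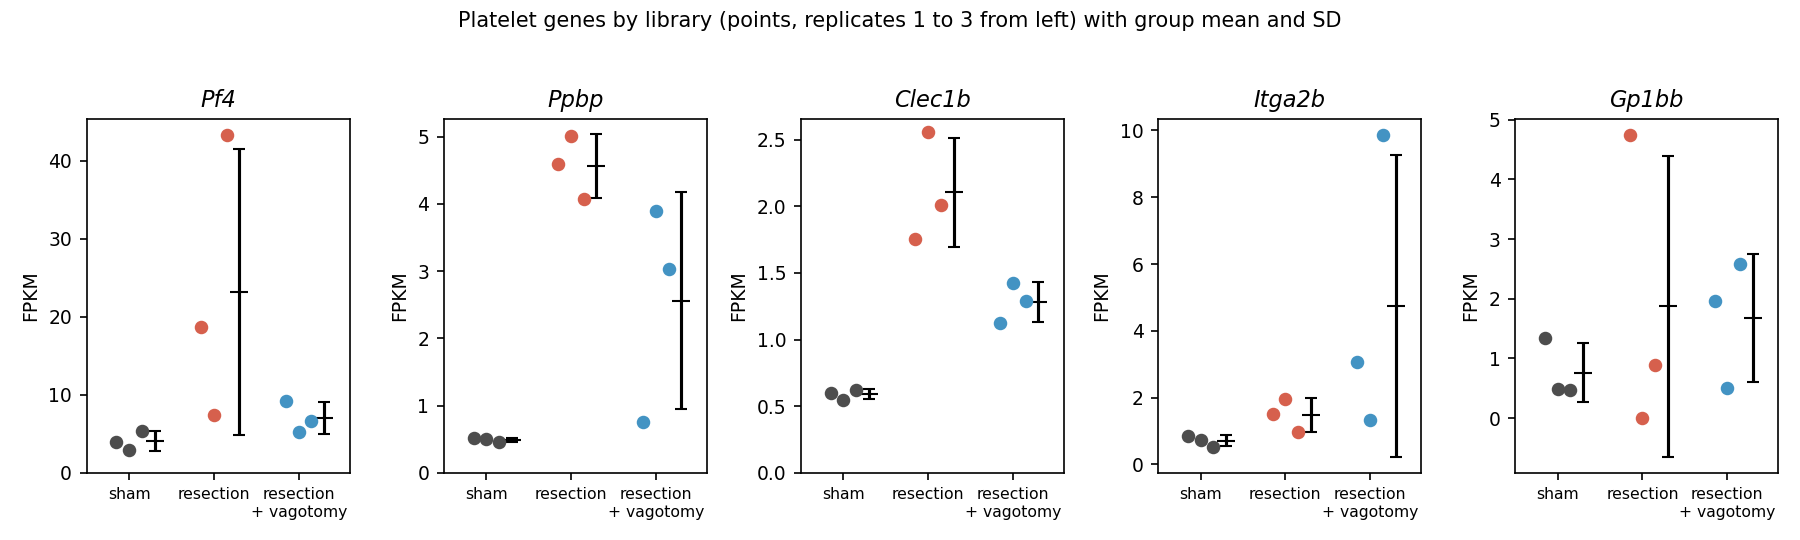
FPKM of the 5 platelet genes listed by library, 1 panel a gene with its own axis: points are libraries (replicates 1 to 3 from left to right), and the bar beside them is the group mean with its SD (n = 3). Ppbp and Clec1b are tight in sham and resection, Pf4 spreads from 7.45 to 43.3 after resection, and Itga2b is highest in 1 vagotomy library (9.86).

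The secreted chemokines come first. Pf4 (platelet factor 4, CXCL4; ENSMUSG00000029373, chromosome 5, 90772435 to 90773381 in GRCm38) encodes the most abundant chemokine of the platelet alpha granule and binds heparin. It stood at 3.94, 2.86 and 5.34 FPKM in the sham libraries and at 18.7, 7.45 and 43.3 FPKM in resection replicates 1, 2 and 3. All 3 resection libraries were above sham, but they differed widely among themselves, with replicate 3 far above replicate 2. The means were 4.05 ± 1.25 and 23.2 ± 18.3 FPKM. The log2 difference was 1.98 (SE 0.50, adjusted p = 0.228). It was 1.38 without resection replicate 3 (adjusted p = 0.504) and 2.58 without resection replicate 2 (adjusted p = 0.0314), and the adjusted p ran from 0.0111 to 0.899 over all alternatives. In the authors' deposited table Pf4 was 5.75-fold higher after resection (q = 0.00161).

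Ppbp (ENSMUSG00000029372, chromosome 5, 90768518 to 90770060) encodes pro-platelet basic protein, the precursor of the neutrophil attractant CXCL7. It lies on the same strand as Pf4, and 2371 bases separate the pair in GENCODE. Its levels were 0.514, 0.497 and 0.452 FPKM in sham and 4.59, 5.01 and 4.07 FPKM after resection. The libraries within each of these groups were close together, and the groups stood far apart. The means were 0.488 ± 0.0317 and 4.56 ± 0.474 FPKM, with a log2 difference of 1.90 (SE 0.36, adjusted p = 0.0668). The authors' deposited table gives Ppbp a 9.35-fold higher value after resection (q = 0.00161). The limma adjusted p moved across the threshold with the setting. It was 0.024 when only the 6 compared libraries were fitted and 0.0181 without vagotomy replicate 1, within 0.0121 to 0.29 over all alternatives.

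Of the receptors, Clec1b (ENSMUSG00000030159) encodes CLEC-2, the platelet receptor for podoplanin, which activates platelets through Syk. It stood at 0.596, 0.549 and 0.623 FPKM in sham and at 1.75, 2.56 and 2.01 FPKM after resection. The groups did not overlap, and all values were low. Its means were 0.59 ± 0.0373 and 2.11 ± 0.409 FPKM (log2 difference 0.96, SE 0.24, adjusted p = 0.228), and the authors' deposited table gives 3.57-fold and a q of 0.0536. Clec1b lies on chromosome 6 (129397297 to 129409335 in GENCODE) and shares 184 of its 5103 exon bases with Clec9a, a dendritic cell receptor gene on the same strand, so reads in that stretch could be given to either gene. Clec9a was also higher in the resection libraries (2.18, 5.36 and 4.46 FPKM) than in sham (1.71, 1.88 and 1.89 FPKM).

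Treml1 (ENSMUSG00000023993, chromosome 17, 48359916 to 48367174) encodes TLT-1, a receptor kept in platelet granules until activation. In the authors' deposited table its group value was 0.218 FPKM in sham and 0.39 FPKM after resection, with no test made. Itga2b (ENSMUSG00000034664, chromosome 11, 102453297 to 102470122) encodes integrin alphaIIb, the alpha subunit of the platelet fibrinogen receptor. It stood at 0.855, 0.744 and 0.523 FPKM in sham and at 1.503, 1.96 and 0.961 FPKM after resection. The lowest resection library was just above the highest sham library. The means were 0.707 ± 0.169 and 1.47 ± 0.5 FPKM, and the log2 difference of 0.52 did not pass (SE 0.48, adjusted p = 1.0, and q = 0.314 in the authors' deposited table).

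The remaining 3 members encode subunits of GPIb-IX-V, the von Willebrand factor receptor. Gp9 (ENSMUSG00000030054, chromosome 6, 87778136 to 87779762) had authors' deposited group values of 0.237 FPKM in sham and 0.481 FPKM after resection. Gp5 (ENSMUSG00000047953, chromosome 16, 30307686 to 30310779) had 0.143 and 0.243 FPKM in the authors' deposited table. Neither was tested there. Gp1bb (ENSMUSG00000050761, chromosome 16, 18620317 to 18622403 in GENCODE) was the least even member, at 1.33, 0.483 and 0.462 FPKM in sham and 4.74, 0.0 and 0.881 FPKM in resection replicates 1, 2 and 3. The groups overlapped, and its log2 difference was 0.36 (SE 0.58, adjusted p = 1.0). Without resection replicate 1 it was -0.32, so the direction rests on that library. Gp1bb shares 1902 of its 2087 exon bases (91.1%) with the septin gene Sept5 on the same strand, which leaves its value uncertain. Sept5 was at 9.62 FPKM in resection replicate 1, 4.78 in replicate 2 and 3.37 in replicate 3.

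The authors' group values cover all 8 members without a filter. Each was higher after resection than in sham, by 1.70-fold (Gp5) to 9.35-fold (Ppbp). Among all genes above 0 in either group, 50.4% were higher after resection, and among those whose larger value was between 0.1 and 1 FPKM, the range of Treml1, Gp9 and Gp5, it was 52.7%. The direction of those 3 has no replicate spread and no test behind it.

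**Figure D2:**
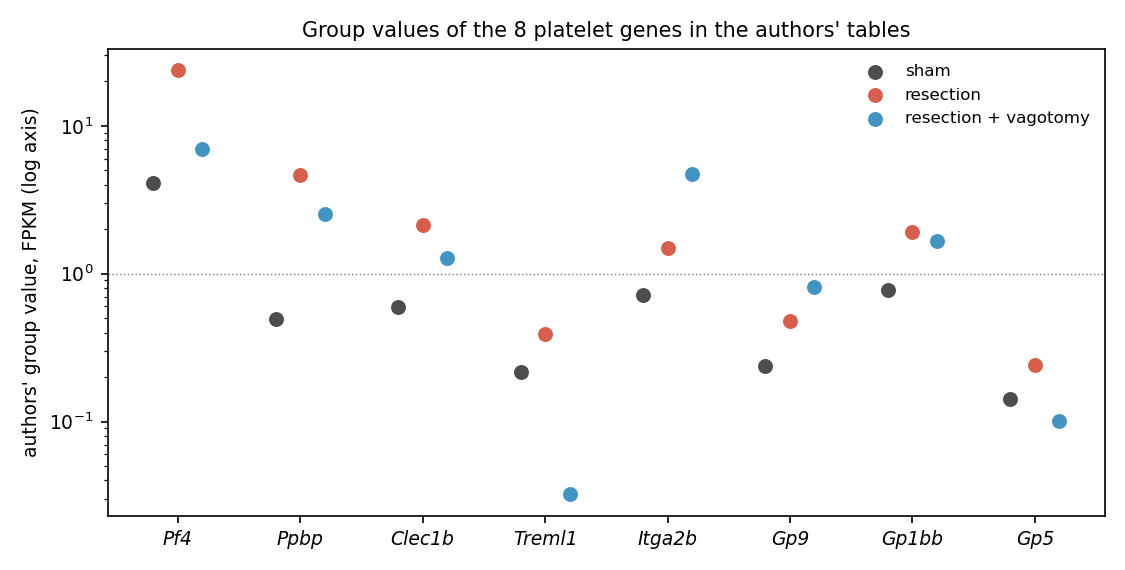
Group values in FPKM (log axis) of the 8 platelet genes in the authors' tables, for sham and resection from 1 table and resection with vagotomy from the other; the dotted line is 1 FPKM. For all 8 genes the resection point lies above the sham point, and for Itga2b and Gp9 the vagotomy point lies above the resection point.

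The comparison of resection with vagotomy against resection alone asks what the loss of left vagal input changes in the resected heart. Pf4, Ppbp and Clec1b had lower means with vagotomy, and Itga2b had a higher mean, but by limma 0 of the 5 passed, against 3.52% of all tested genes. Only Pf4 had an unadjusted p under 0.05, against 24.2% of all tested genes. Ppbp and Clec1b were lower in all 3 vagotomy libraries than in any resection library, which was so for 12.2% of tested genes. Pf4 stood at 9.23, 5.19 and 6.60 FPKM in vagotomy replicates 1, 2 and 3 (mean 7.0 ± 2.05 FPKM). Resection replicate 2 lay among these values, and the other 2 resection libraries lay above them. The log2 difference was -1.31 (SE 0.50, adjusted p = 0.149) and -0.72 without resection replicate 3. In the authors' deposited table Pf4 was 3.29-fold lower with vagotomy (q = 0.000995), the 1 member past a q of 0.05, against 17.1% of genes tested there, and it also passed a q of 0.01, against 8.84%.

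Ppbp stood at 0.761, 3.90 and 3.02 FPKM in vagotomy replicates 1, 2 and 3. Replicate 1 was near the sham libraries and the other 2 were near the resection libraries. The mean was 2.56 ± 1.62 FPKM, with a log2 difference from resection of -0.77 (SE 0.36, adjusted p = 0.219), which became -0.32 without vagotomy replicate 1. Clec1b stood at 1.13, 1.42 and 1.29 FPKM, between both other groups without touching either. Its mean was 1.28 ± 0.148 FPKM, and the log2 difference from resection was -0.44 (SE 0.24, adjusted p = 0.296). Clec9a, its neighbour, stood at 2.0, 3.15 and 1.94 FPKM with vagotomy.

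Itga2b went the other way. It stood at 3.06, 1.32 and 9.86 FPKM in vagotomy replicates 1, 2 and 3, with a mean of 4.75 ± 4.52 FPKM. Replicate 2 lay within the resection range, and replicate 3 alone held most of the excess. The log2 difference from resection was 0.94 (SE 0.48, adjusted p = 0.255), and 0.33 without replicate 3. In the authors' deposited table Itga2b was 3.21-fold higher (q = 0.0864). Its partner subunit gene Itgb3, which is also used by endothelium and macrophages, was at 1.87, 2.05 and 2.69 FPKM in the same 3 libraries and was also highest in replicate 3. That library is the one with the most genes at 0 and the highest Tnnt2, and the part of this in the Itga2b value was not tested. Gp1bb stood at 1.97, 0.495 and 2.57 FPKM with vagotomy, and its log2 difference was 0.18 (SE 0.58, adjusted p = 0.881). That difference was -0.39 without resection replicate 2 and -0.069 without vagotomy replicate 3. Of the members absent from the matrix, the authors' deposited table gives Treml1 0.0322 FPKM with vagotomy against 0.38 FPKM after resection, Gp5 0.101 against 0.237 FPKM and Gp9 0.81 against 0.469 FPKM. In the authors' group values 6 of the 8 members were lower with vagotomy, against 51.0% of all genes above 0 in either group and 50.7% of those between 0.1 and 1 FPKM. Gp1bb is among the 6 (1.12-fold lower), although its log2 difference above is positive. The resection values differ slightly between both authors' tables, which were scaled separately.

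**Figure D3:**
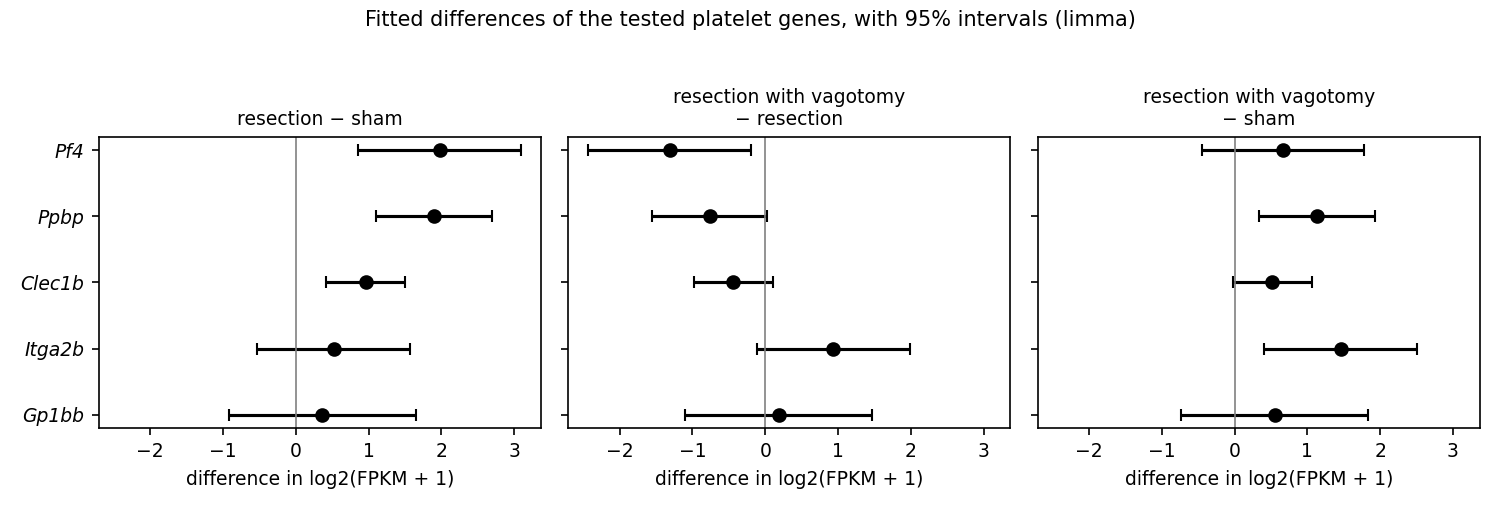
Fitted difference in log2(FPKM + 1) for the 5 tested platelet genes in 3 contrasts, with 95% intervals from limma (9 libraries, unadjusted). Intervals for Pf4, Ppbp and Clec1b lie above 0 for resection minus sham, and with vagotomy the interval for Pf4 against resection lies below 0 and those for Ppbp and Itga2b against sham lie above 0.

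Against sham, the vagotomy libraries were higher for Ppbp, Clec1b and Itga2b with no overlap between groups, which was so for 19.7% of tested genes, and by limma 0 of the 5 passed, against 10.1%. Those 3 genes are in the matrix only through libraries other than sham, so their count is a description here too. Ppbp and Itga2b had an unadjusted p under 0.05, against 30.1%. Ppbp had a log2 difference of 1.13 (SE 0.36, adjusted p = 0.0684). Without vagotomy replicate 1 it was 1.58 with an adjusted p of 0.0208, within 0.00213 to 0.193 over all alternatives. Itga2b had 1.46 (SE 0.48, adjusted p = 0.0742). Without vagotomy replicate 2 it was 1.96 with an adjusted p of 0.0374, within 0.0305 to 0.214, and without replicate 3 it was 0.85. Clec1b had 0.52 (adjusted p = 0.182), Pf4 0.66 (adjusted p = 0.403) and Gp1bb 0.55 (adjusted p = 0.563). The 3 contrasts share libraries and are given side by side only. Over the 5 tested members the median log2 difference was 0.96 for resection against sham, -0.44 for vagotomy against resection and 0.66 for vagotomy against sham. Over all tested genes the medians were -0.0089, 0.022 and 0.032.

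The members did not move as 1 block over the 9 libraries. Ppbp and Clec1b had the most similar patterns of the 10 pairs (Pearson r = 0.925 on log2 values over 9 libraries, which share the group differences). Pf4 had r = 0.582 with Ppbp and 0.665 with Clec1b, and Itga2b had r = 0.0263 with Pf4. Of all tested genes outside the members, those most like the members' mean z-score included Il17ra (r = 0.959), Fam20c (0.958) and Trabd2b (0.95). Il17ra encodes a receptor subunit for interleukin 17. Most like Pf4 were Steap1 (0.958), the CXC chemokine gene Cxcl3 (0.956) and S100a6 (0.937). Cxcl3 reached at most 0.041 FPKM in sham, against 3.54, 1.36 and 9.18 FPKM after resection. Most like Ppbp were Fam105a (0.971), Cxcr2 (0.931) and Abhd6 (0.929). Cxcr2 encodes the neutrophil receptor for CXCL7. It stood at 0.705, 4.07 and 2.05 FPKM in the 3 vagotomy libraries, and, like Ppbp, was low in replicate 1 of the 3. Most like Clec1b were Ifitm6 (0.946), Lilrb4 (0.945) and Fam105a (0.944).

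Other genes of platelet biology were read from 5 lists. Of 13 further platelet receptors, 6 were tested, and by limma 0 passed in resection against sham (2 higher, 4 lower, median log2 difference -0.34), while 1 (Cd9) had an unadjusted p under 0.05. The tetraspanin gene Cd9, widely expressed, was at 27.9 ± 6.55 FPKM in sham against 44.0 ± 6.59 FPKM in the resected apex (adjusted p = 0.676), and Itgb3 at 1.74 ± 0.134 and 2.54 ± 0.305 FPKM (adjusted p = 1.0). The collagen receptor subunit gene Itga2 stood at 1.71 ± 0.355 and 1.12 ± 0.694 FPKM (adjusted p = 1.0). Receptors that are close to exclusive to platelets were near 0 in the authors' deposited tables. Gp6, the collagen receptor, was listed at 0.0237 FPKM in sham and at 0 after resection. Gp1ba, the von Willebrand factor-binding subunit, was at 0.429, 0.364 and 0.573 FPKM in sham, resection and vagotomy, so that its value after resection was the lowest of the 3.

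Of 10 granule genes, 8 were tested, and 1 passed for resection against sham. F13a1, the A subunit of clotting factor XIII, which tissue macrophages also make, rose from 6.84 ± 1.92 to 23.1 ± 1.95 FPKM (log2 difference 1.65, SE 0.27, adjusted p = 0.0382). It lost the call in 9 of 20 alternatives. Among these were the fits without any 1 sham library, any 1 resection library, or vagotomy replicate 2 or 3, with an adjusted p of 0.00443 to 0.173 over all 20. The median log2 difference of the 8 was 1.48. Thrombospondin 1 (Thbs1) stood at 18.0 ± 7.64 and 69.7 ± 24.8 FPKM (adjusted p = 0.0674), and clusterin (Clu) at 66.1 ± 51.6 and 471 ± 167 FPKM (adjusted p = 0.0547). Both passed for vagotomy against sham (log2 differences 1.74 and 3.00, adjusted p = 0.0218 and 0.0128). Without sham replicate 2 both lost that call, and Thbs1 also lost it without vagotomy replicate 3, with adjusted p up to 0.0995 for Thbs1 and 0.067 for Clu over all alternatives.

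Of 14 genes of platelet signalling and cytoskeleton, 12 were tested and 1 passed for resection against sham, with a median of 0.47. Plek (pleckstrin), a kinase substrate of platelets and of white blood cells, rose from 2.33 ± 1.31 to 18.3 ± 3.69 FPKM (adjusted p = 0.00594). It kept the call in 19 of 20 alternatives, the exception being the fit to the 6 compared libraries (adjusted p = 0.0567). Fermt3, the kindlin of blood cells, stood at 0.951 ± 0.456 and 3.3 ± 1.78 FPKM (adjusted p = 0.454) and was at 6.6 ± 1.77 FPKM with vagotomy, where it passed against sham (adjusted p = 0.0129), though not without sham replicate 2 or 3 (adjusted p up to 0.0688 over all alternatives). Tubb1, the tubulin of platelets, was at 0.231, 0.328 and 0.289 FPKM in the authors' deposited tables.

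Of 9 megakaryocyte transcription factor genes, 6 were tested, and by limma 0 passed (4 higher, 2 lower, median 0.087), while 1 (Runx1) had an unadjusted p under 0.05. Runx1 stood at 0.332 ± 0.0877 and 1.72 ± 0.627 FPKM (adjusted p = 0.341), Lmo2 at 2.65 ± 0.843 and 3.99 ± 0.634 FPKM (adjusted p = 1.0) and Zfpm1 at 12.2 ± 6.19 and 7.97 ± 3.6 FPKM (adjusted p = 1.0), although the deposited locus of Zfpm1 spans many other genes. In the authors' deposited tables Gata1 was at 0.0889, 0.0598 and 0.0429 FPKM, and Gfi1b was listed at 0 in sham and at 0.0284 and 0.0369 FPKM in the other groups. Of 9 ligand and receptor partners 3 were tested, with 1 call. Itgam, a subunit of Mac-1, the leukocyte integrin that binds GPIb, rose from 1.92 ± 1.76 to 16.4 ± 5.45 FPKM (adjusted p = 0.0382). It lost the call in 9 of 20 alternatives, without sham replicate 1 or 2, without any 1 resection library and without vagotomy replicate 1 or 2 among them (adjusted p from 0.00411 to 0.193). Pdpn, the podoplanin gene that encodes the ligand of CLEC-2, stood at 5.0 ± 0.38 and 6.91 ± 2.68 FPKM. The fibrinogen genes Fga and Fgb were listed at 0 in sham and resection.

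**Figure D4:**
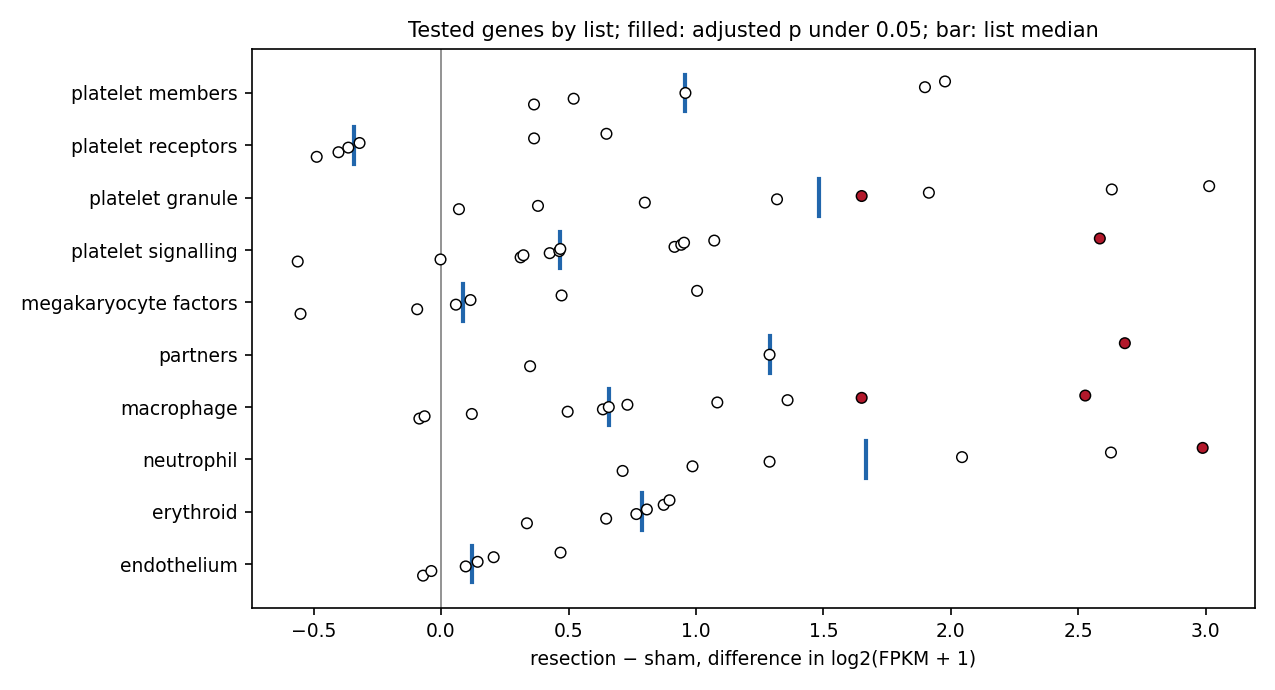
Difference in log2(FPKM + 1) between resection and sham for each tested gene (1 point a gene) in the platelet gene lists and in marker lists of other cell types; filled points have an adjusted p under 0.05 and the bar is the list median. The 5 tested platelet members have 0 filled points, as do the further platelet receptors and megakaryocyte factors. The filled points are F13a1 (drawn in 2 lists, granule and macrophage), Plek (signalling), Itgam (partners), Lyz2 (macrophage) and S100a8 (neutrophil).

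Marker lists of other cell types were read beside the members, with the 3 groups in the order sham, resection and vagotomy. Of 12 macrophage markers 11 were tested and 2 rose after resection (F13a1 and Lyz2), with a median log2 difference of 0.66. Their summed level was 64.6 to 87.9 FPKM in sham, 180 to 294 FPKM after resection and 173 to 241 FPKM with vagotomy. Of 10 neutrophil markers 6 were tested and 1 rose (S100a8), with a median of 1.67. The sums were 19.2 to 41.0 FPKM, 185 to 279 FPKM and 95.1 to 262 FPKM. The calprotectin genes S100a8 and S100a9 parted with vagotomy: S100a8 had means of 20.8 ± 9.77, 165 ± 45.5 and 42.8 ± 15.3 FPKM, and S100a9 had 6.01 ± 1.0, 45.4 ± 19.5 and 140 ± 82.6 FPKM. Against resection S100a8 fell with vagotomy (log2 difference -1.94, adjusted p = 0.0344), and S100a9 had 1.49 (adjusted p = 0.119). The S100a8 call was lost in 7 of 20 alternatives, without sham replicate 2 or 3, resection replicate 1 or 2, or vagotomy replicate 1 or 3 among them (adjusted p up to 0.129). Against sham S100a9 and Csf3r, the receptor gene for G-CSF, rose with vagotomy (adjusted p = 0.00425 and 0.0145). The Csf3r call was lost without sham replicate 2 or 3 (adjusted p up to 0.075). For resection against sham the calls of Lyz2 and S100a8 were lost without single libraries (without sham replicate 2 or resection replicate 1 for both, and also without sham replicate 1 or resection replicate 3 for Lyz2), with adjusted p up to 0.113 and 0.0663. Of 10 erythroid markers 6 were tested, all with higher means after resection (median 0.79) and 0 passed by limma, nor did any have an unadjusted p under 0.05. Their sums were 439 to 1355 FPKM in sham, 794 to 4352 FPKM after resection and 362 to 655 FPKM with vagotomy. The sham range overlapped both others, while all vagotomy libraries lay below all resection libraries. For vagotomy against resection 5 of the 6 tested erythroid markers were lower and 1 was higher (median -0.83), and 0 passed by limma. Unadjusted p was under 0.05 for markers in both directions. For vagotomy against sham 3 were higher and 3 lower (median -0.20), and 1 passed, as higher, so these markers did not move together. Of 6 mast cell and basophil markers, of note for Itga2b, 2 were tested (Cpa3 and Kit) and neither passed in any contrast. Cpa3 was lower with vagotomy than in sham at an unadjusted limma p of 0.0382 (log2 difference -0.94, adjusted p = 0.143). In the other contrasts, and for Kit in all of them, the unadjusted p was above 0.05. The sums were 4.44 to 9.73, 4.95 to 8.90 and 4.30 to 10.5 FPKM, and single genes differed. In vagotomy replicates 1, 2 and 3 the tryptase gene Tpsb2, too low to be tested, stood at 1.53, 0.124 and 2.73 FPKM, in the same order as Itga2b, against 0.0991 to 0.278 FPKM in the other 6 libraries. Cpa3 stood at 1.24, 1.14 and 0.0 FPKM in those 3, and Kit at 5.25, 9.28 and 1.57 FPKM. In the authors' deposited tables Ms4a2, Fcer1a and Mcpt4 were listed at 0 with vagotomy, as were the neutrophil genes Ly6g and Elane. All of these were also low in the other groups, at no more than 0.22 FPKM (Ly6g in sham), and Elane was at 0 in sham too. Of the 6 tested neutrophil markers, 2 were higher and 4 lower with vagotomy than after resection. Endothelial markers summed to 264 to 348, 302 to 340 and 290 to 341 FPKM, and for resection against sham 0 of 6 passed, also unadjusted. With vagotomy the endothelial sialomucin gene Emcn fell, with means of 28.8 ± 5.34, 32.3 ± 8.53 and 8.97 ± 1.52 FPKM (adjusted p = 0.0169 against resection and 0.0119 against sham). The call was lost without resection replicate 2 or vagotomy replicate 3 against resection, and without sham replicate 2 or 3 against sham (adjusted p up to 0.0864 and 0.0641). Pecam1 and Tie1 had higher means with vagotomy than in sham, with unadjusted p under 0.05 and adjusted p of 0.0762 and 0.114. The part of mast cells, white cells, red cells, endothelium or blood content in the members' levels was not tested.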

How the data were processed

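The 9 libraries (3 per group) were grouped by the labels. Per the submitters' processing notes the tools were Cuffdiff 2.1.1 and Cufflinks 2.1.1, after TopHat2 2.0.9, on GRCm38. In the deposited matrix the authors had added 1 to each FPKM, and this was subtracted. Every gene it lists exceeds 1 FPKM in some library. The authors' deposited Cuffdiff tables hold group FPKM, p-values and q-values. No read counts were used: low FPKM values showed no common step from which depth could be recovered. Log2(FPKM + 1) of the 13249 genes averaging 1 FPKM or more (5 members) was fitted with limma 3.58.1 in R 4.3.3, with 1 mean per group, all 9 libraries together and trended variance moderation, and adjusted by Benjamini-Hochberg. The procedure was tested on simulated data, drawn with independent genes and with changes placed only on genes of higher level. That test therefore does not speak for low genes such as most of the tested members, nor for spread shared between genes. A further 20 settings were tried: pseudocounts, filters, scaling, moderation, libraries fitted or left out, and a replicate block. Library weights were added after seeing the data.

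The members and lists were chosen with earlier results of these data known, so lists are described by counts and medians. The text names all members and, of each list, the genes past the threshold in a contrast or, where there were none, up to 3 with the smallest p in resection against sham. By the same rule it names the genes with the highest Pearson r to the members' pattern (5) and to Pf4, Ppbp and Clec1b (3 each). Single values of other list genes, among them Gp6, Gp1ba, Tubb1, Gata1, Gfi1b, Pdpn, Fga, Fgb, Tpsb2, Pecam1 and Tie1, were chosen after their values were seen. Gene positions are the deposited loci with starts counted from 1, or GENCODE M21 (GRCm38) where a deposited locus holds several genes. Sept5 is listed in the tables under a date-like symbol and was matched by its identifier. Of the list symbols, Mpig6b and Ahsp were not matched. Some genes that these rules name are not reported here.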

Additional observations from a re-analysis of the deposited data

How the results depend on the processing

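Over 20 alternatives Pf4, Ppbp, Clec1b and Itga2b kept their direction in every contrast in which they could be fitted. With a filter at an average of 5 FPKM, Pf4 was the 1 member left. For resection against sham, 0 members passed in 14 of 20 alternatives. The count was 1 with a pseudocount of 0.1, with the 6 compared libraries or with robust moderation (Ppbp each time), 3 with library weights (Pf4, Ppbp and Clec1b), and 0 to 1 without single libraries. For vagotomy against sham it was 3 with library weights and 0 to 1 without single libraries, and for vagotomy against resection it was 0 in all 20. With library weights 417 of all 13249 tested genes passed for resection against sham. For vagotomy against sham 6389 of them did, so the 3 members there do not stand out. The authors' calls (2 and 1) were unchanged at a q of 0.01. The median log2 difference of the tested members for resection against sham was 1.66 and 0.34 with pseudocounts of 0.1 and 5 and 1.98 for Pf4 alone (-1.31 for vagotomy against resection), and that of vagotomy against sham 1.00 with a pseudocount of 0.1. Without single libraries the medians ran from 0.94 to 1.04, -0.52 to -0.32 and 0.50 to 0.84. Gp1bb turned direction without single libraries (-0.32 to 0.94 for resection against sham, -0.39 to 0.87 for vagotomy against resection). So did, for resection against sham, Actc1 (-0.54 to 0.030), Kit (-0.060 to 0.39) and Emcn (-0.052 to 0.30, and -0.063 with library weights). The cause was not tested.

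All genes called for resection against sham (39) became 66 and 23 with pseudocounts of 0.1 and 5, 13 with the 6 compared libraries, 74 with robust moderation, 417 with library weights and 11 to 59 without single libraries. For vagotomy against resection 466 became 29 with the 6 compared libraries, 887 with library weights, 1277 with the replicate block and 42 to 591 without single libraries. For vagotomy against sham 1334 became 6389 with library weights, 2413 with the block and 100 to 1701 without single libraries. The replicate block called 0 members in all 3 contrasts (median 0.96, -0.44 and 0.66). Its numbers are not taken to pair the libraries, since the labels do not say that they do. Same-numbered libraries deviated from their group means with r from -0.0193 to 0.498, mostly above 0. For differently numbered libraries of 2 groups r ran from -0.448 to 0.335 and was mostly below 0. Whether equal numbers mark a shared origin was not tested. Depth is unknown, so no member can be called absent.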

Other observations

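Nfe2, which encodes the megakaryocyte factor NF-E2 and was chosen here after its values were seen, had a mean under 1 FPKM and was not tested. It stood at 0.19, 0.22 and 0.44 FPKM in sham, at 0.85, 1.14 and 1.22 FPKM after resection and at 0.32, 0.17 and 0.09 FPKM with vagotomy, so that the resection libraries lay above the other 6. Selp, the gene of P-selectin, made by platelets and endothelium and also chosen after its values were seen, stood at 0.34, 0.14 and 0.46 FPKM in sham, 1.33, 2.27 and 3.55 FPKM after resection and 1.84, 1.25 and 1.59 FPKM with vagotomy. For resection against sham its log2 difference was 1.32 (adjusted p = 0.15 by limma), and for vagotomy against sham 0.96 (adjusted p = 0.0678). Selp shares its deposited locus with F5 and other genes.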
